A study of Drosophila melanogaster with 29 samples.

Results

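The genes described here encode the protein subunits of the mitochondrial respiratory chain and ATP synthase of Drosophila melanogaster. They were taken by symbol from the deposited gene tables: every fly gene whose symbol starts with ND-, COX, ATPsyn, UQCR-, SdhA, SdhB, SdhC, SdhD or Cyt-c, and the protein genes of the mitochondrial genome (mt:ND, mt:Co, mt:Cyt and mt:ATPase). The rule found 97 of 17612 genes, of which 84 lie in the nuclear genome and 13 in the mitochondrial genome. The nuclear members fall into 40 of complex I, 6 of complex II, 10 of complex III, 11 of complex IV, 15 of complex V and 2 cytochrome c genes. The mitochondrial members are 7 of complex I, 1 of complex III, 3 of complex IV and 2 of complex V. Among the nuclear members, 20 carry symbols of duplicated copies (an L at the end of the symbol, or Cyt-c-d).

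Electrons enter the chain at complex I (NADH dehydrogenase) and complex II (succinate dehydrogenase, also an enzyme of the citric acid cycle), pass through complex III (cytochrome bc1) and cytochrome c to complex IV (cytochrome c oxidase), and complex V (ATP synthase) uses the resulting proton gradient to make ATP. Complex II is encoded wholly in the nucleus, whereas complexes I, III, IV and V combine nuclear subunits, made in the cytosol and imported, with a few hydrophobic subunits transcribed and translated inside the mitochondrion. Neurons depend heavily on this pathway to power ion pumping and synaptic transmission, and glia of the fly brain are known for their glycolytic metabolism.

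The study profiled neurons of the fly head direction circuit, sorted by fluorescence (FACS) from brains of female flies 3 to 5 days old in which a split-GAL4 driver line expressed the reporter nlstdTomato, so each cell type is defined by what its driver line labels. Bulk libraries of 754 to 1270 sorted cells came from D7 neurons (lines SS02238 and SS30295, 2 libraries each, n = 4), EPG neurons (lines SS00096 and SS00131, 2 each, n = 4), PEG neurons (SS02191, n = 2) and PEN2 neurons (SS02232, n = 2), with whole brain RNA including the optic lobes as reference (WB, 5 ng, n = 2). Low-cell libraries held 35 PEN2 cells (SS02232, n = 14, deposited as entries of 8 and 6 libraries) or 40 R4d ring neurons (SS00238, n = 7), with 50 pg of central brain RNA without optic lobes as reference (CB, n = 8). The R4d libraries form 1 deposited entry and so do the CB libraries. Single cells were sequenced in plates of PEN1 neurons (SS62862, 6 plates, 380 wells used) and PEN2 neurons (SS02232, 5 plates, 362 wells used). The header of the bulk table gives SS00238 for 1 D7 library whose title gives SS02238, and 1 D7 title spells SS30195 where its driver label and the header give SS30295. The design lists 9 R4d libraries, of which 7 were analysed here. The study's design calls the bulk libraries biological replicates. For low-cell libraries and plates the labels do not say whether they come from separate animals, so their p-values measure the spread between libraries, which may be technical.

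Low-cell libraries held 340527 to 415414 gene counts for CB, 399694 to 500622 for PEN2 and 1001160 to 1154010 for R4d, and plates held 2444190 to 5783840. Bulk values were read as FPKM, a unit the deposit does not name, and their read depth is unknown. Markers of neurons were present in all groups. Markers of acetylcholine neurons stood at 1829 to 3188 summed CPM (gene counts scaled to the library total) in low-cell PEN2 and at no more than 36.8 in R4d, whereas GABA markers stood at 664 to 892 CPM in R4d. The summed level of 7 glial markers was 4207 to 4710 CPM in CB, 0 to 83.5 in PEN2 and 0 to 33.9 in R4d, with repo at 0 in every R4d library. Photoreceptor markers summed to 1418 to 1959 CPM in CB, of which Rh2 alone gave 1360 to 1897. The other markers of that list, ninaE, ninaC and trp, reached at most 34.1, 47.4 and 24.1 CPM in CB. In bulk libraries the glial sum was 3188 FPKM in PEG replicate 1 and 179 in PEG replicate 2, 649 and 674 in WB, and at most 31.4 in D7, EPG and PEN2. Bulk counts that involve PEG are also given without its replicate 1. In bulk samples fewer cells of a type and less RNA per cell cannot be told apart.

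Nuclear and mitochondrial members behaved differently in R4d ring neurons and in PEN2 neurons. As a share of all gene counts, the 84 nuclear members made up 5.56 to 6.77% of an R4d library with a median of 6.34%, 2.27 to 2.98% of a PEN2 library with a median of 2.62%, and 2.54 to 2.84% of a CB library. R4d libraries were thus all above the others, while PEN2 and CB overlapped. The 13 mitochondrial members made up 1.59 to 2.54% in R4d with a median of 2.28%, 1.41 to 2.13% in PEN2 with a median of 1.82%, and 4.50 to 6.23% in CB with a median of 5.79%. Here both sorted types lay below every brain library and overlapped with each other. The mitochondrial sum divided by the nuclear sum was therefore 0.285 to 0.392 in R4d, 0.556 to 0.863 in PEN2 and 1.77 to 2.28 in CB, with no overlap between any of the groups. Both deposited entries of PEN2 fell in the same range of this ratio, 0.556 to 0.778 in 8 libraries and 0.580 to 0.863 in 6. These shares are descriptions over a member list and were not tested.

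**Figure D1:**
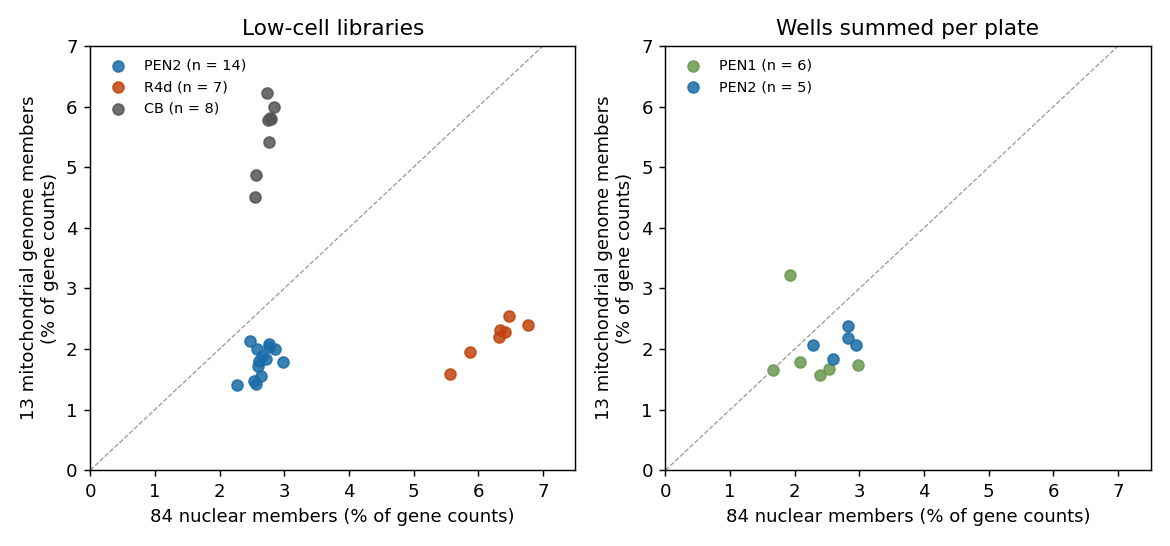
Share of gene counts from the 84 nuclear members (x axis, %) against the share from the 13 mitochondrial genome members (y axis, %), with low-cell libraries on the left and wells summed per plate on the right; each point is a library or plate and the dashed line marks equal shares. CB libraries lie above the line at 4.50 to 6.23% mitochondrial, R4d libraries far to the right at 5.56 to 6.77% nuclear, and 1 PEN1 plate sits alone above the line at 3.23% mitochondrial.

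Each gene was then compared between groups with edgeR's quasi-likelihood test on the counts, with Benjamini-Hochberg adjustment over all 5553 genes tested; a gene is said to have risen or fallen where its adjusted p was under 0.05. Of the nuclear members 62 could be tested; ND-B8, ND-MNLL and all 20 duplicated copies had too few counts. In R4d against CB, 53 of the 62 rose, where 10.9% of all tested genes rose, and 0 of 62 fell, where 16.5% of all tested genes fell. The median log2 difference of these nuclear members was 1.37, beside -0.09 over all tested genes, and for 49 of the 62 the R4d and CB libraries did not overlap. The share of all tested genes without overlap is not given. Counts without overlap, here and below, therefore describe the members alone. Of the 11 mitochondrial members tested, 7 fell and 0 rose, with a median of -1.37. The remaining 4 mitochondrial members and 9 nuclear members did not pass the test. The R4d libraries were deeper than the CB libraries, and glial markers and the photoreceptor gene Rh2 were abundant in CB and near 0 in R4d. The part of depth and of these markers in the differences was not tested. In the authors' deposited table of this comparison the median log2 difference was 1.08 over the 84 nuclear members and -1.28 over the 13 mitochondrial members.

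Complex I contributed the most risers, 27 of its 32 tested nuclear members, with a median log2 difference of 1.44. ND-15, a small accessory subunit on the intermembrane side, stood at 516, 829.1 and 977 CPM in R4d (lowest, median and highest library), at 138, 165 and 203 in CB and at 90.2, 235 and 398 in PEN2. All 7 R4d libraries were above all 8 CB libraries and all 14 PEN2 libraries, and the log2 difference from CB was 2.32 ± 0.25 (SE; edgeR adjusted p = 2.68e-09). ND-B15, an accessory subunit of the membrane arm, showed the same order, with 249, 304 and 418 CPM in R4d against 29.4, 53.8 and 80.2 in CB, a log2 difference of 2.48 ± 0.42 (edgeR adjusted p = 1.15e-05). ND-B12, another membrane arm accessory subunit, stood at 172, 295 and 359 CPM in R4d and at 42.8, 56.0 and 90.1 in CB, without overlap, and rose by 2.30 ± 0.30 (edgeR adjusted p = 9.02e-08). ND-MLRQ, whose mammalian relative is found with complex IV although it is named with complex I, stood at 477, 648 and 888 CPM in R4d and at 128, 203 and 212 in CB and rose by 1.81 ± 0.23 (edgeR adjusted p = 1.02e-07).

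The 7 catalytic core subunits of complex I that are encoded in the nucleus are ND-75, ND-51, ND-49, ND-30, ND-24, ND-23 and ND-20. Most of them carry the flavin or iron-sulfur clusters or line the quinone site. In R4d against CB, 3 of these 7 rose with a median of 0.71, and 24 of 25 accessory subunits rose with a median of 1.53. The difference between these subunit classes was not tested. ND-20, which holds the last iron-sulfur cluster before quinone, stood at 429.6, 729.6 and 775 CPM in R4d and at 389.3, 547 and 661 in CB. These ranges overlap, and the log2 difference of 0.31 ± 0.30 did not pass the test (edgeR adjusted p = 0.524).

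Complex II had the lowest median of the 5 complexes, 0.37, and 1 of its 4 tested members rose. SdhA, the flavoprotein that oxidizes succinate, stood at 292, 338 and 506 CPM in R4d, at 112, 264 and 601 in PEN2 and at 311, 377 and 465 in CB. The 3 groups overlap, and R4d did not differ from CB by more than the spread between libraries (log2 difference -0.07 ± 0.28, edgeR adjusted p = 0.904). SdhD, a membrane anchor of the complex, was the member that rose: it stood at 606, 808 and 1053 CPM in R4d against 289, 380.2 and 490.4 in CB, a log2 difference of 1.07 ± 0.21 (edgeR adjusted p = 8.94e-05).

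In complex III, 6 of 7 tested nuclear members rose, with a median of 1.06. The small subunit UQCR-6.4 had the largest change of all members, at 284, 460.5 and 575 CPM in R4d against 41.4, 62.9 and 112 in CB. The log2 difference was 2.79 ± 0.28 (edgeR adjusted p = 3.01e-10), and no libraries overlapped. UQCR-C1, a large core protein of the matrix side, stood at 1244, 1541 and 1972 CPM in R4d and at 722, 757 and 904 in CB and rose by 1.06 ± 0.15 (edgeR adjusted p = 3.98e-07). Cyt-c1, the haem protein that hands electrons to cytochrome c, stood at 769, 908 and 966 CPM in R4d against 479, 617 and 772 in CB and did not pass the test (log2 difference 0.52 ± 0.21, edgeR adjusted p = 0.0662).

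All 7 tested nuclear members of complex IV rose, with a median of 1.52. COX7C, a small subunit of the membrane domain, stood at 506, 829.3 and 898 CPM in R4d and at 126, 170.5 and 183 in CB, and the log2 difference was 2.21 ± 0.19 (edgeR adjusted p = 1.80e-11). COX6B, a subunit facing the intermembrane space, stood at 1842, 2349.9 and 2745 CPM in R4d and at 626, 821 and 911 in CB and rose by 1.58 ± 0.16 (edgeR adjusted p = 7.41e-10). COX5A, a matrix-side subunit, stood at 1433, 1796 and 2085 CPM in R4d and at 703, 809 and 917 in CB and rose by 1.15 ± 0.19 (edgeR adjusted p = 5.41e-06). For each of these, every R4d library was above every CB library.

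All 11 tested nuclear members of complex V rose as well, with a median of 1.19. The highest in counts were ATPsynbeta, the catalytic subunit, and ATPsynC, which forms the rotating ring in the membrane. ATPsynbeta stood at 3974, 4269 and 4957 CPM in R4d, at 1236, 1633 and 2224 in PEN2 and at 1971, 2194 and 2297 in CB, with R4d above CB by 1.04 ± 0.10 on the log2 scale (edgeR adjusted p = 2.86e-10). ATPsynC stood at 3949, 4220.4 and 4360.1 CPM in R4d, at 1276, 1728 and 2154 in PEN2 and at 1584, 1855 and 2037 in CB, with R4d above CB by 1.21 ± 0.10 (edgeR adjusted p = 5.30e-12). ATPsynCF6, the coupling factor of the peripheral stalk, had the largest change of this complex, from 224, 254 and 307 CPM in CB to 855, 1264 and 1497 in R4d, a log2 difference of 2.30 ± 0.22 (edgeR adjusted p = 9.58e-11). For all of these R4d was separate from both other groups. Cyt-c-p, the cytochrome c expressed in the body at large, rose by less: it stood at 983, 1181 and 1421 CPM in R4d and at 829.7, 888 and 1070.2 in CB, overlapping ranges, with a log2 difference of 0.43 ± 0.14 (edgeR adjusted p = 0.0169).

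**Figure D2:**
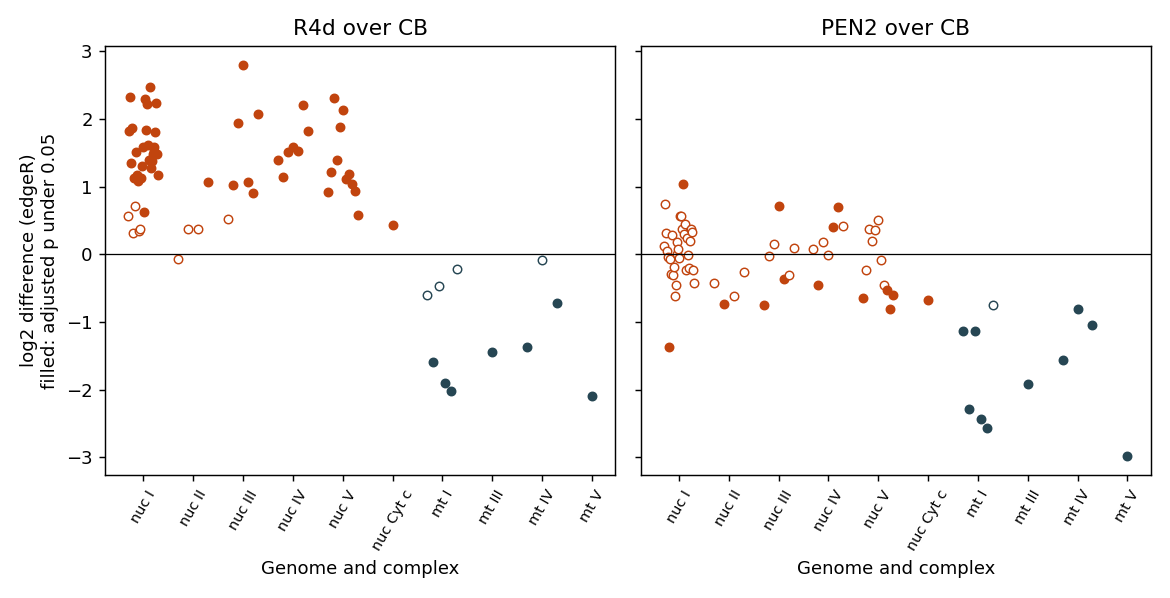
Log2 difference of each tested member in the low-cell libraries, grouped along the x axis by genome and complex, for R4d over CB and PEN2 over CB; filled points passed the edgeR test at an adjusted p under 0.05 and open points did not. In R4d the nuclear members lie around 1.37 and the mitochondrial members around -1.37, whereas in PEN2 the nuclear members lie around -0.01 and the mitochondrial members around -1.56.

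The tested nuclear members are short, with a median exon length of 879.5 bases beside 2322 over all tested genes, and short genes as a whole were higher in R4d. Over the 5536 tested genes with an annotated exon length the Spearman correlation between that length and the log2 difference of R4d over CB was -0.21, and over the 62 nuclear members it was -0.67; genes of one set of libraries are not independent. The 731 tested genes of at most 1000 exonic bases had a median log2 difference of 0.77, with 184 higher and 60 lower. The 40 nuclear members in that length class had a median of 1.53 and 38 of them rose, and the 22 longer members had a median of 0.99 and 15 rose. The part of gene length in the differences was not tested.

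PEN2 neurons did not share the nuclear pattern. Against CB, 4 of the 62 nuclear members rose, where 7.06% of all tested genes rose, and 10 fell, where 11.3% fell, so the share of risers lay near that of all genes. The median log2 difference of the nuclear members was -0.01, beside -0.14 over all genes, and for none of the 62 were the groups without overlap. The risers were ND-B14.5B, UQCR-6.4, COX7C and COX7A. ND-B14.5B, an accessory membrane subunit of complex I, stood at 65.0, 185 and 287 CPM in PEN2 against 45.7, 75.5 and 116 in CB, a log2 difference of 1.03 ± 0.25 (edgeR adjusted p = 0.00241). COX7C stood at 154, 314 and 352 CPM in PEN2 and at 126, 170.5 and 183 in CB and rose by 0.69 ± 0.17 (edgeR adjusted p = 0.00204). UQCR-6.4 stood at 61.7, 123 and 199 CPM in PEN2 and rose by 0.71 ± 0.24 (edgeR adjusted p = 0.0295), and COX7A, at 514, 803 and 1089 CPM against 450.2, 560.3 and 658, rose by 0.41 ± 0.14 (edgeR adjusted p = 0.0322). In all 4 the groups overlap, and none of the 4 passed the test with the second deposited PEN2 entry alone (edgeR adjusted p from 0.0806 for COX7C to 0.516 for COX7A).

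Of the 10 nuclear members that fell in PEN2 against CB, 7 were among the 22 members over 1000 exonic bases and 3 among the 40 shorter ones. Of all 5536 tested genes with an exon length 627 fell, and of the 731 of at most 1000 exonic bases 83 fell. The Spearman correlation of exon length with the log2 difference was -0.63 over the 62 nuclear members and 0.18 over the 5536 genes. The part of gene length was not tested. ND-20, the 1 of 7 core subunits of complex I that fell, stood at 32.5, 192 and 448 CPM in PEN2 and at 389.3, 547 and 661 in CB and fell by 1.37 on the log2 scale (SE 0.25, edgeR adjusted p = 6.16e-05). ATPsyndelta, a subunit of the central stalk of ATP synthase, stood at 184, 367 and 781 CPM in PEN2 and at 553, 583 and 777 in CB and fell by 0.81 (SE 0.18, edgeR adjusted p = 0.000567). Cyt-c1 stood at 134, 423 and 577 CPM in PEN2 and fell by 0.75 (SE 0.18, edgeR adjusted p = 0.00185), and Cyt-c-p, at 446, 632 and 845 CPM, fell by 0.67 (SE 0.12, edgeR adjusted p = 2.62e-05). The PEN2 and CB libraries of these 4 genes overlap. ATPsynbeta fell by 0.53 (SE 0.09, edgeR adjusted p = 8.43e-06), whereas ATPsynC, with a log2 difference of -0.23 ± 0.09, did not pass the test (edgeR adjusted p = 0.0607).

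Compared directly with each other, PEN2 lay below R4d in 59 of the 62 nuclear members, where 11.9% of all tested genes were lower, and above it in 0 of 62, where 11.3% were higher. The median log2 difference was -1.37, beside -0.05 over all genes, and for 32 members no PEN2 library reached an R4d library. By complex, 30 of 32 members of complex I, 3 of 4 of complex II, all 7 of complex III, all 7 of complex IV and all 11 of complex V were lower in PEN2, as was Cyt-c-p. All 7 core subunits of complex I were among them, with a median of -1.12, beside 23 of 25 accessory subunits with a median of -1.47. ATPsynbeta stood at a log2 difference of -1.57 ± 0.09 (edgeR adjusted p = 1.33e-16), ATPsynC at -1.44 ± 0.09 (edgeR adjusted p = 8.26e-16) and ATPsynCF6 at -1.93 ± 0.18 (edgeR adjusted p = 6.36e-11). UQCR-6.4 was at -2.08 ± 0.22 (edgeR adjusted p = 2.01e-09), ND-B15 at -2.03 ± 0.35 (edgeR adjusted p = 1.44e-05) and ND-15 at -2.003 ± 0.21 (edgeR adjusted p = 1.03e-09). UQCR-Q, a small subunit of complex III, stood at 68.9, 187 and 305 CPM in PEN2 and at 454, 678 and 1001 in R4d, without overlap, a difference of -1.97 ± 0.21 (edgeR adjusted p = 2.13e-09). Both groups are sorted cells. Their glial markers summed to 0 to 83.5 CPM in PEN2 and 0 to 33.9 in R4d, and the part of these was not tested. Short genes as a whole were lower in PEN2: of the 731 of at most 1000 exonic bases, 201 were lower and 12 higher, with a median of -0.84. Of the nuclear members, 38 of the 40 in that length class (median -1.46) and 21 of the 22 longer ones (median -1.27) were lower. The R4d libraries held more counts per library, and the part of depth and of gene length was not tested. Each comparison shares a group with another, so the counts above are not independent of each other.

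The mitochondrial members separated the brain RNA from both sorted types. In PEN2 against CB, 10 of 11 fell, with a median log2 difference of -1.56, and for 6 of these 10 no libraries overlapped. In R4d against CB, 7 of 11 fell and for 6 of these 7 no libraries overlapped. mt:CoI, the catalytic subunit of complex IV and the most abundant member, stood at 6739, 8505 and 9259 CPM in R4d, at 6111, 8215 and 9445 in PEN2 and at 19176, 22042 and 24403 in CB.
The sorted types cover the same range, below every CB library, with log2 differences from CB of -1.37 ± 0.08 in R4d (edgeR adjusted p = 1.86e-15) and -1.56 ± 0.07 in PEN2 (edgeR adjusted p = 1.03e-19). mt:ATPase6, which forms the proton channel of ATP synthase beside the ring of ATPsynC, stood at 2122, 2585 and 2953 CPM in R4d, at 885, 1435 and 2690.3 in PEN2 and at 9525, 11333 and 12500.3 in CB. It had the largest difference of the mitochondrial members in both types, -2.09 ± 0.16 in R4d (edgeR adjusted p = 5.16e-13) and -2.97 ± 0.13 in PEN2 (edgeR adjusted p = 7.17e-20).

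The mitochondrial members of complex I did not all pass the test, and differences among them were not tested. mt:ND5 stood at 919, 1410.4 and 1653 CPM in R4d, at 507, 1038 and 1946 in PEN2 and at 4902, 6086 and 6767 in CB, and mt:ND4 at 296, 986 and 1137, at 358, 647 and 999 and at 1988, 3111 and 4011. For both, all sorted libraries lay below all CB libraries. In R4d mt:ND5 fell by 2.02 and mt:ND4 by 1.90 on the log2 scale (edgeR adjusted p = 9.64e-09 and 1.13e-08), and in PEN2 by 2.56 and 2.43 (edgeR adjusted p = 1.96e-13 for each). mt:ND2, with 123, 206 and 259 CPM in R4d, 13.8, 126 and 279.5 in PEN2 and 443, 609 and 703 in CB, also fell in both (log2 difference -1.59 ± 0.37 in R4d, edgeR adjusted p = 0.000836, and -2.28 ± 0.30 in PEN2, edgeR adjusted p = 2.03e-07). mt:ND1, mt:ND3 and mt:ND6 did not pass the test in R4d, with log2 differences of -0.61, -0.46 and -0.22 (edgeR adjusted p = 0.200, 0.337 and 0.731). In PEN2 mt:ND1 and mt:ND3 fell by 1.13 and 1.14 (edgeR adjusted p = 0.00243 and 0.00164), while mt:ND6, at 98.9, 312 and 741 CPM against 438, 591 and 666 in CB, did not pass the test (log2 difference -0.75 ± 0.30, edgeR adjusted p = 0.0821).

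mt:Cyt-b, the haem protein of complex III, stood at 926, 1276 and 1740.0 CPM in R4d, at 507, 1022 and 1490.1 in PEN2 and at 2718, 3631 and 4214 in CB, and fell by 1.45 in R4d and by 1.92 in PEN2 (edgeR adjusted p = 2.86e-08 and 3.45e-13), with no overlap between sorted and brain libraries. The other subunits of complex IV moved less than mt:CoI. mt:CoIII stood at 1351, 2012 and 2355 CPM in R4d, at 1100.4, 1565 and 3067 in PEN2 and at 2094, 3173 and 3926 in CB, overlapping ranges, and fell by 0.72 in R4d (edgeR adjusted p = 0.00183) and by 1.04 in PEN2 (edgeR adjusted p = 9.88e-07). mt:CoII, which receives electrons from cytochrome c, stood at 2264, 4407 and 5913 CPM in R4d and at 2723, 4668 and 6085 in CB, nearly the same range, with a log2 difference of -0.08 ± 0.21 that did not pass the test (edgeR adjusted p = 0.840). In PEN2, at 1569, 2682 and 4659 CPM, it fell by 0.81 (edgeR adjusted p = 0.000717). mt:ATPase8 and mt:ND4L, short genes that overlap mt:ATPase6 and mt:ND4, were near 0 and not tested: in CB they stood at 2.58, 8.49 and 17.6 and at 2.44, 7.52 and 10.3 CPM.

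**Figure D3:**
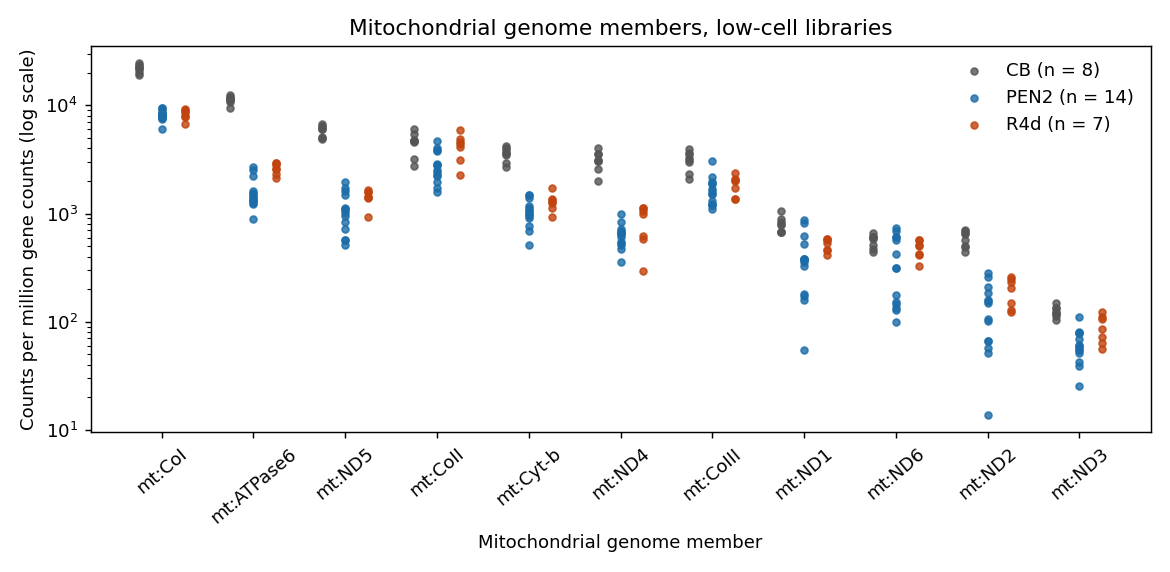
Level of the 11 tested mitochondrial genome members in each low-cell library (y axis, CPM, log scale), ordered along the x axis by level, with CB, PEN2 and R4d libraries side by side. CB points lie apart above both sorted types for mt:CoI (19176 to 24403 CPM) and mt:ATPase6 (9525 to 12500.3 CPM), whereas for mt:CoII and mt:ND6 the 3 groups overlap.

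Between the sorted types the mitochondrial members differed less: 5 of 11 were lower in PEN2 than in R4d, the median log2 difference was -0.53, and for all 11 the libraries overlapped. The 5 were mt:ATPase6 (-0.88 ± 0.13, edgeR adjusted p = 1.36e-06), mt:CoII (-0.73 ± 0.19, edgeR adjusted p = 0.00287), mt:ND5, mt:ND4 and mt:Cyt-b, whereas mt:CoI, at -0.19 ± 0.07, did not pass the test (edgeR adjusted p = 0.0528). The ribosomal RNAs of the mitochondrion made up 2.25 to 4.04% of gene counts in CB, 2.82 to 3.81% in PEN2 and 1.04 to 1.67% in R4d. The single highest count of any gene was 17363 in PEN2, 17907 in R4d and 15467 in CB, although the R4d libraries held more counts in total. The gene at that top in R4d had 17442 to 17907 counts in all 7 libraries. In raw counts mt:CoI had 7514 to 9785 per R4d library, 2786 to 4160 per PEN2 library and 7966 to 9035 per CB library, and the highest nuclear member had 5343 in R4d. mt:lrRNA, the large ribosomal RNA, had 8964 to 13716 raw counts per CB library, 11537 to 17362 per R4d library and 12348 to 16976 per PEN2 library, so it came near the highest count of any gene. Whether high counts were compressed, and so whether these shares are comparable across depths, was not tested.

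Other genes of mitochondrial energy metabolism, from lists chosen with earlier results of these data known, are given by count. Of all tested genes, 10.9% rose and 16.5% fell in R4d against CB, and 7.06% rose and 11.3% fell in PEN2 against CB; differences between a list and all genes were not tested. The 6 subunits of the same complexes that carry other names were all tested: 5 rose in R4d against CB with a median of 2.03, and all 6 were lower in PEN2 than in R4d with a median of -1.46. Among them sun, the epsilon subunit of ATP synthase, stood at 632 ± 151 CPM in R4d (SD, n = 7) and 93.1 ± 16.8 in CB (n = 8), a log2 difference of 2.78 ± 0.32 (SE, edgeR adjusted p = 7.05e-09). cype, a small subunit of complex IV, stood at 1036 ± 225 CPM against 220 ± 30.1 (2.26 ± 0.20, edgeR adjusted p = 2.49e-11). RFeSP, the Rieske iron-sulfur protein of complex III, stood at 921 ± 206 against 672 ± 86.5 CPM and did not pass the test (edgeR adjusted p = 0.0943). In PEN2 against CB 2 of these 6 rose, levy and cype, and 1 fell, the alpha subunit of ATP synthase, blw.

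Of the 13 tested genes of the citric acid cycle and pyruvate entry, 5 rose and 2 fell in R4d against CB, and 0 rose and 5 fell in PEN2 against CB. The 2 of 13 that fell in R4d are near the share of all genes. Fum1, fumarase, stood at 724 ± 174 CPM in R4d and 231 ± 36.7 in CB (log2 difference 1.67 ± 0.25, edgeR adjusted p = 1.15e-06), and ScsbetaA, a succinyl-CoA synthetase subunit, fell by 0.94 (edgeR adjusted p = 0.00302). Of 11 tested glycolytic genes, 0 rose and 6 fell in R4d with a median of -0.57, and 0 rose and 9 fell in PEN2 with a median of -1.11. Gapdh2, glyceraldehyde 3-phosphate dehydrogenase, stood at 535 ± 67.1 CPM in R4d and 1721 ± 139 in CB (log2 difference -1.66 ± 0.18, edgeR adjusted p = 4.24e-09). Glial markers were abundant in CB and near 0 in R4d and PEN2, and their part in these differences was not tested.

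Among carriers of the mitochondrial membranes, 1 of 6 tested rose and 1 fell in R4d against CB, near the shares of all genes. porin, the channel of the outer membrane, rose from 1014 ± 54.6 to 1993 ± 201 CPM (log2 difference 1.00 ± 0.14, edgeR adjusted p = 2.91e-07), whereas sesB, the ADP/ATP exchanger, stood at 5054 ± 234 CPM in R4d and 4955 ± 379 in CB (edgeR adjusted p = 0.796). Of 7 genes that maintain or express the mitochondrial genome, 1 rose in R4d, also near the share of all genes. This was TFAM, which packages mitochondrial DNA and helps start its transcription, and which stood at 330 ± 69.2 CPM in R4d, 74.6 ± 56.6 in PEN2 (n = 14) and 44.8 ± 18.4 in CB. Its log2 difference was 2.90 ± 0.54 in R4d against CB (edgeR adjusted p = 4.93e-05) and -2.31 ± 0.44 in PEN2 against R4d (edgeR adjusted p = 8.00e-05). Of 69 tested subunits of the mitochondrial ribosome, which translates the mitochondrial members, 12 rose and 0 fell in R4d against CB with a median of 0.92, and 1 rose and 1 fell in PEN2 against CB with a median of -0.17. The 731 short genes described above had a median of 0.77 in R4d against CB, with 184 higher. Of 5 tested assembly factors none passed the test in R4d against CB. Of 4 antioxidant genes 1 rose in R4d against CB, and all 4 were lower in PEN2 than in R4d with a median of -1.86. Of 2 regulators tested, the transcription factor ewg, the fly relative of nuclear respiratory factor, fell in R4d from 79.6 ± 19.6 to 20.5 ± 8.71 CPM (log2 difference -1.92 ± 0.58, edgeR adjusted p = 0.0104).

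The duplicated copies were scarcely detected. In flies such copies are known mainly from the testis. Of the 20, 8 had 0 counts in all low-cell libraries, 9 were under 1 FPKM in every bulk library and 2 were listed at 0 in all bulk libraries. The highest levels were 17.1 FPKM of ATPsynCF6L and 14.3 FPKM of COX4L in bulk PEN2, 12.9 FPKM of UQCR-11L in WB, 68.2 CPM of COX4L in 1 low-cell PEN2 library and 46.0 CPM of Cyt-c-d in 1 low-cell PEN2 library. Cyt-c-d, the cytochrome c of the male germ line, was at 2.08 and 1.86 FPKM in WB and at most 0.12 in sorted libraries. It was the 1 member that passed the bulk test against WB in all 4 sorted types, with differences of -0.98 for D7, -1.01 for EPG, -1.01 for PEG and -0.90 for PEN2 on the log2(FPKM + 1) scale (limma adjusted p from 4.93e-05 in EPG to 0.000500 in PEN2). However, Cyt-c-d met the filter of at least 1 FPKM in at least 2 libraries only through the WB libraries. A lower level in sorted cells was thus built into its being tested, and no conclusion is drawn from these calls. Exons of 35 nuclear and 5 mitochondrial members overlap another annotated gene, and whether the authors' counting used strand is not given in the sources used here, so reads of such genes cannot be told apart.

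If the bulk values are FPKM, as they were read here, genes can be compared per length. ATPsynC was the highest nuclear member at 540 ± 213 FPKM over the 12 sorted libraries (SD), followed by ATPsynbeta at 146 ± 55.7 and Cyt-c-p at 145 ± 67.6. The last 2 do not differ beyond their spread. The highest nuclear members of the other complexes were COX5A at 102 ± 56.6 for complex IV, ND-MLRQ at 59.8 ± 50.2 for complex I, UQCR-Q at 32.5 ± 34.4 for complex III and SdhA at 27.5 ± 11.9 for complex II. The spread of UQCR-Q, from 2.84 to 126 FPKM, exceeds its mean. These SDs mix cell types and lines.

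The balance of the genomes in the bulk libraries was described and not tested. Ribosomal RNA took 70 to 81% of the summed FPKM in most sorted libraries, 41.9% in PEG replicate 1 and about 40% in WB, so shares are given without it. The nuclear members made up 2.56, 2.51, 2.07 and 1.83% in D7, 2.52, 2.15, 2.02 and 2.02% in EPG, 1.39 and 1.13% in PEN2, and 0.849 and 0.991% in WB. The mitochondrial members made up 3.69 to 5.91% in D7, 2.03 to 4.15% in EPG, 1.89 and 1.26% in PEN2, and 8.53 and 7.88% in WB. Mitochondrial over nuclear sums were thus 1.65 to 2.86 in D7, 1.00 to 1.65 in EPG, 1.36 and 1.11 in PEN2, and 10.05 and 7.95 in WB. By driver line they were 1.65 and 1.81 (SS02238) and 2.86 and 2.01 (SS30295) in D7. In EPG they were 1.65 and 1.24 (SS00096) and 1.00 and 1.02 (SS00131). Both PEN2 values lay inside the EPG range, so differences between lines and between sorted types cannot be told apart here. In each sorted library of these 3 types the ratio was below both brain libraries, and D7 and EPG met at 1.65. PEG replicate 1 gave 27.0 and replicate 2 gave 1.48. In that first PEG library the mitochondrial sum was 43192 FPKM, against 2396 in the second, while the nuclear sums were 1601 and 1623. The same library held 3188 FPKM of glial markers, and the part of glial RNA in its values was not tested.

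**Figure D4:**
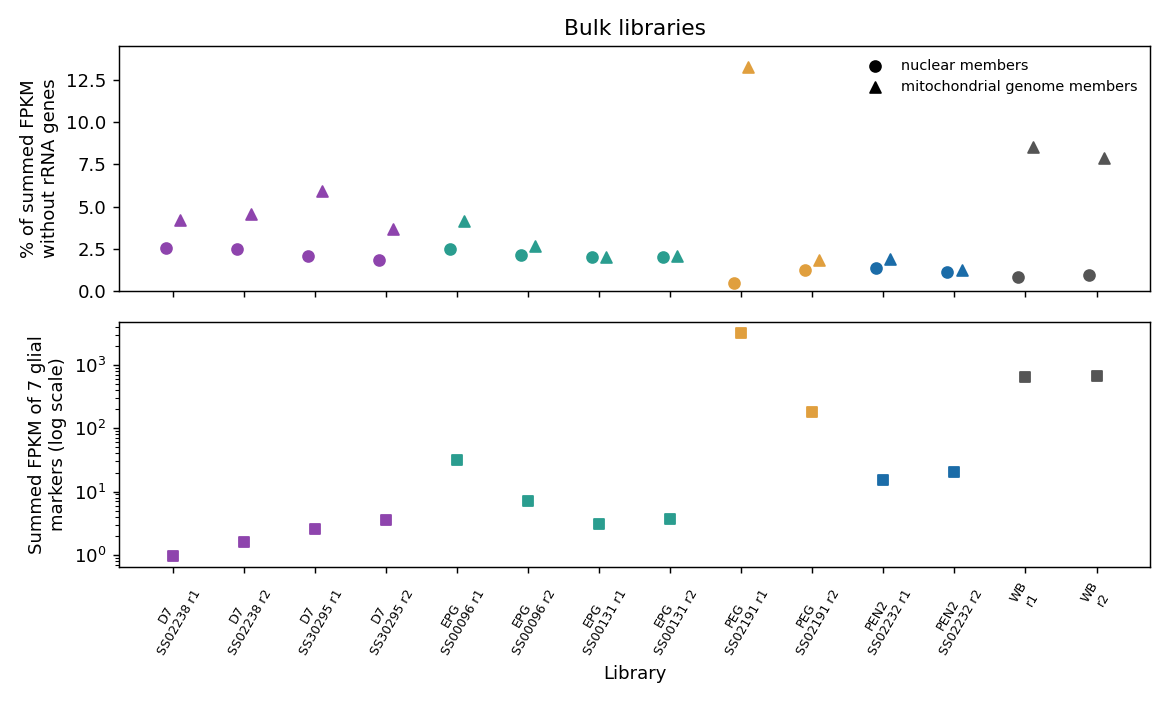
Upper panel: nuclear and mitochondrial members as % of the summed FPKM without rRNA in each of the 14 bulk libraries; lower panel: summed FPKM of 7 glial markers in the same libraries (log scale). PEG replicate 1 stands out in both panels, with 13.3% mitochondrial members and 3188 FPKM of glial markers, above the WB libraries with 8.53 and 7.88%.

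For tests in bulk, limma was run on log2 of the scaled FPKM plus 1 for 9500 genes, 67 nuclear and all 13 mitochondrial members among them. Few members passed in any comparison. Against WB, D7 had 4 of 80 members past the test (3 higher, 1 lower) where 10.3% of all tested genes passed in either direction, EPG 3 (1 higher, 2 lower) where 9.69% passed, PEG 4 (1 higher, 3 lower) where 6.11% passed, and PEN2 3 (1 higher, 2 lower) where 7.72% passed. As shares of 80, all of these lie below those of all genes. None of these was a mitochondrial member. The count of each type includes Cyt-c-d, which was tested only through its WB values. The authors' deposited comparisons with WB gave other counts for the mitochondrial members. There 8 of 13 were called lower in D7 (783 of all 17612 genes), 12 in EPG (528), 0 in PEG (0) and 3 in PEN2 (10). In none of these comparisons was any of the 13 called higher. In unscaled FPKM 10 of 13 in D7 and all 13 in EPG and in PEN2 had no overlap between sorted and brain libraries. On that scale the medians of all genes were -0.92 in D7, -0.92 in EPG and -1.13 in PEN2. The share of all genes without overlap is not given. After scaling, medians of the nuclear members were 0.60 for D7, 0.56 for EPG, 0.24 for PEG and -0.57 for PEN2. Those of the mitochondrial members were -0.50, -1.73, -0.04 and -2.19, beside medians of all genes from -0.42 to -0.21. At an unadjusted limma p under 0.05, the mitochondrial members that passed numbered 2 for D7, 4 for EPG, 0 for PEG and 5 for PEN2. The share of all genes at that unadjusted p is not given.

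The count of 0 mitochondrial members changed with the PEG libraries, whose difference enters the spread shared by all groups. Shares of all tested genes past the test are given for the main fit only. Counts from other fits, here and below, are not set beside such a share. Without PEG replicate 1, the mitochondrial members below WB numbered 3 for D7, 10 for EPG and 9 each for PEG and PEN2. With PEG replicate 2 left out in its place, 3 were lower in D7, 10 in EPG and 9 in PEN2, and 4 were higher in PEG. In PEG without replicate 1, 1 nuclear member was higher and 3 were lower than WB, and the nuclear median was -0.46 in place of 0.24 and the mitochondrial median -2.42 in place of -0.04. Without either WB library 0 members of any kind passed. mt:CoI stood at 1481 to 2272 FPKM in D7, 901 to 1074 in EPG, 13839 and 942 in PEG, 654 and 497.5 in PEN2, and 5742 and 5166 in WB. mt:ND5 stood at 154 to 223 FPKM in D7, 132 to 151 in EPG, 1695 and 138.5 in PEG, 185 and 48.8 in PEN2, and 1461 and 1249.5 in WB. Both put D7, EPG and PEN2 below WB, PEG replicate 1 above WB and PEG replicate 2 within the range of the other sorted libraries. mt:Cyt-b, at 255.5 to 436 FPKM, 345 to 648, 6624 and 360.5, 375 and 257, and 3162 and 2824 in the same order of groups, overlapped between D7 and EPG, while for mt:CoI every D7 library was above every EPG library. The scaling also mattered. WB was multiplied by 0.518 and sorted libraries by 0.93 to 1.49 by the TMM factors, and with the deposited FPKM unscaled the medians of all genes moved from -0.21 to -0.92 in D7 and from -0.42 to -1.13 in PEN2. On that scale the mitochondrial members below WB numbered 3 for D7, 8 for EPG, 0 for PEG and 12 for PEN2, and the nuclear medians turned to -0.38 in D7, -0.39 in EPG and -0.74 in PEG.

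ATPsynC was above WB in 3 of the types. It stood at 507, 359, 615 and 501 FPKM in D7, 467, 648, 938 and 860 in EPG, 401 and 634 in PEG, 344 and 204 in PEN2, and 418 and 445 in WB. After scaling it was above WB in D7 (1.28 ± 0.24, limma adjusted p = 0.00284), in EPG (1.76 ± 0.24, limma adjusted p = 0.000221) and in PEG (1.25 ± 0.27, limma adjusted p = 0.0132). Without PEG replicate 1 the difference of PEG was 1.41 (limma adjusted p = 0.0129), and without PEG replicate 2 it was 1.06 and did not pass (limma adjusted p = 0.0691). Unscaled, the differences of D7, EPG and PEG were 0.18, 0.70 and 0.23 and none passed; the deposited values of D7 and of PEG overlap those of WB.

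Small subunits made up the rest of the risers. ATPsynE, a subunit of the membrane part of ATP synthase, stood at 62.7, 119, 94.1 and 88.5 FPKM in D7 and 31.8 and 39.4 in WB (2.38 ± 0.69, limma adjusted p = 0.0460), and ND-13A, an accessory complex I subunit, at 51.7, 130.3, 48.9 and 48.3 against 26.4 and 28.1 (2.25 ± 0.63, limma adjusted p = 0.0383). ATPsynF, another membrane subunit of ATP synthase, stood at 87.0 and 103 FPKM in PEN2 and 27.5 and 30.7 in WB (2.90 ± 0.74, limma adjusted p = 0.0312). In each the groups do not overlap. ND-MWFE, a small complex I subunit, went the other way: it was listed at 0, 1.82, 0 and 1.14 FPKM in EPG, at 0 in both PEG and both PEN2 libraries, and at 20.7 and 25.5 in WB. It was lower in EPG (-3.05 ± 0.68, limma adjusted p = 0.0108), PEG (limma adjusted p = 0.0113) and PEN2 (limma adjusted p = 0.0102). Without PEG replicate 1 the difference of PEG was -3.73 (limma adjusted p = 0.0404). The exons of ND-MWFE overlap 2 other genes, Nrk and TppII, and in the plates it was detected at 89 to 482 CPM. In the low-cell libraries ND-MWFE stood at 2.19, 101 and 223 CPM in PEN2 (lowest, median and highest library). In CB it stood at 31.0, 72.9 and 117 CPM, an overlapping range, and PEN2 against CB did not pass the test.

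Between sorted types, each against the mean of the other 3, the calls were fewer. D7 had 2 of 80 members past the test where 4.51% of all genes passed, EPG 1 where 2.57% passed, PEG 1 where 1.91% passed and PEN2 2 where 2.19% passed, so no share stood clearly above that of all genes. COX8, a small complex IV subunit, was higher in D7 (1.60 ± 0.36, limma adjusted p = 0.0255) and lower in PEG, at 0.32 and 0 FPKM (-2.93 ± 0.45, limma adjusted p = 0.00642). Both calls of COX8 were also made without PEG replicate 1 (limma adjusted p = 0.0226 for D7 and 0.0172 for PEG). ATPsynC was higher in EPG (0.73 ± 0.17, limma adjusted p = 0.0422), although EPG, at 467 to 938 FPKM, overlapped the other sorted libraries, at 204 to 634. That call was lost unscaled, unfiltered, without WB, with the replicate block and when any 1 of 11 of the 14 libraries was left out (limma adjusted p = 0.0660 without PEG replicate 1). In PEN2, Cyt-c1, at 10.4 and 4.2 FPKM against 15.3 to 39.6 in the other sorted libraries, was lower (-1.75 ± 0.32, limma adjusted p = 0.0141), as was UQCR-14, a complex III subunit, at 0 and 2.77 FPKM (-2.75 ± 0.61, limma adjusted p = 0.0376). Nuclear medians were 0.55 for D7, 0.59 for EPG, -0.18 for PEG and -0.73 for PEN2. Without PEG replicate 1 the members past the test numbered 7 for D7 (2 nuclear and 5 mitochondrial, all higher), 0 for EPG, 1 for PEG and 2 for PEN2, the nuclear median of PEG was -0.80 and its mitochondrial median was -0.62 in place of 1.55. UQCR-14 then did not pass in PEN2 (limma adjusted p = 0.0537), and ATPsynC was lower there (-0.96 ± 0.20, limma adjusted p = 0.0356).

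Gad1, the enzyme that makes GABA, stood at 211 FPKM in bulk PEN2 replicate 1, 2.83 in replicate 2 and 189 and 188 in WB, and at no more than 16.8 in the other sorted libraries. Its part in the values of bulk PEN2 was not tested. Without PEN2 replicate 1, 4 members passed against WB (1 higher, 3 lower) and 7 against the other types (1 higher, 6 lower), and the nuclear medians were -0.84 and -1.04. Cyt-c1 was then at -2.16 against the other types (limma adjusted p = 0.00958), while ATPsynF against WB (3.21, limma adjusted p = 0.0577) and UQCR-14 against the other types (-1.59, limma adjusted p = 0.261) did not pass. Bulk PEN2 and low-cell PEN2, of the same driver line, were normalized separately and are not tested against each other.

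In single cells, summed per plate, PEN1 and PEN2 did not separate. The nuclear members made up 2.08, 2.53, 1.93, 2.98, 1.66 and 2.39% of counts in the 6 PEN1 plates and 2.28, 2.82, 2.59, 2.82 and 2.94% in the 5 PEN2 plates. The mitochondrial members made up 1.57 to 1.78% in 5 PEN1 plates and 3.23% in the other plate, replicate 3, and 1.83 to 2.38% in PEN2. Both measures overlap between the types. The ratio was 0.580 to 1.67 in PEN1 and 0.701 to 0.909 in PEN2, beside 0.556 to 0.863 in the low-cell PEN2 libraries. Of 62 nuclear and 13 mitochondrial members tested with edgeR, 0 passed at an adjusted p under 0.05, where 0.256% of all 6249 tested genes passed. At an unadjusted edgeR p under 0.05, 7 nuclear members and 0 mitochondrial members passed, and DESeq2 gave 0 at its adjusted p. The share of all genes at the unadjusted p is not given. The medians were -0.25 for nuclear and -0.21 for mitochondrial members, beside 0.00 over all genes. ND-MWFE and ND-MLRQ had groups that did not overlap: ND-MWFE stood at 89, 197 and 231 CPM in PEN1 (lowest, median and highest plate) and 232, 353 and 482 in PEN2, and ND-MLRQ at 307, 397 and 469.7 and at 509.5, 651 and 728. Their log2 differences of -0.92 ± 0.27 and -0.65 ± 0.19 did not pass adjustment (edgeR adjusted p = 0.242 for both).

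The same shares were computed in each well. The plate medians of the nuclear share were 1.56 to 2.85% in PEN1 and 1.81 to 2.51% in PEN2, and those of the mitochondrial share 1.27 to 1.81% and 1.07 to 2.09%. In PEN2 plate replicate 1 the wells between the quartiles spanned 1.04 to 6.537% for the mitochondrial share and 1.27 to 2.71% for the nuclear share. Over the wells of a plate the Spearman correlation of both shares ran from -0.418 to 0.110 in PEN1 and from -0.501 to -0.206 in PEN2. Both shares have the same total, so this is a description. Glial markers summed to 6.1 to 745 CPM in PEN1 plates and 7.4 to 1207 in PEN2 plates. Gad1 stood at 0.90 to 117 CPM in PEN1 plates and 25.9 to 454 in PEN2 plates, and VGlut at 0.36 to 78.4 and 0.36 to 19.6. Of the PEN1 plates, replicate 3 had the highest Gad1 and the highest VGlut, but not the highest glial sum. The part of these markers in the shares was not tested.

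**Figure D5:**
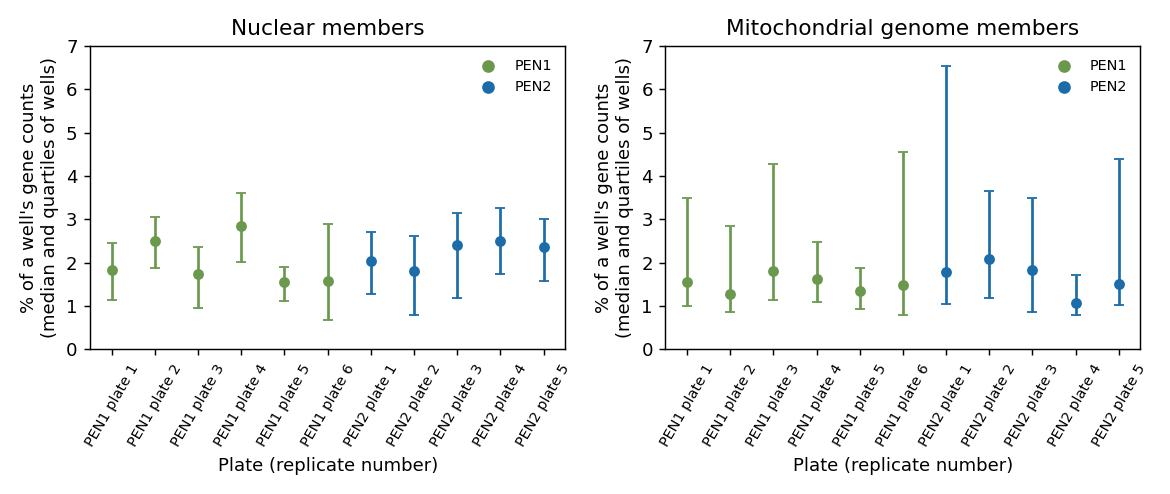
Share of a well's gene counts from the nuclear members (left) and the mitochondrial genome members (right) in each plate, as the median over wells with bars from the lower to the upper quartile. Plate medians of PEN1 (1.56 to 2.85% nuclear) and PEN2 (1.81 to 2.51%) overlap, and the mitochondrial quartile bars reach up to 6.537% in PEN2 plate 1.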

How the data were processed

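The authors deposited low-cell and plate values as whole-number counts per gene, made by steps that the headers do not describe; STARsolo and edgeR are named in the submitters' processing notes without versions, and build, annotation, strand and use of molecular identifiers are not given in the sources used here. The deposited bulk table names no unit: its values were read as FPKM from their range, with totals of 400823 to 560539 per library. The deposited comparison tables give a log2 fold change and an adjusted p-value of the authors per gene, with the sign turned here to sorted over brain.

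The members and gene lists were chosen with earlier results of these data known. Bulk libraries were tested with limma 3.58.1 (R 4.3.3) on log2(TMM-scaled FPKM + 1), a scale that understates changes of low genes, for genes with at least 1 FPKM in at least 2 libraries. Counts were tested with edgeR 4.0.16 (quasi-likelihood, TMM, filterByExpr), and DESeq2 1.42.0 was an alternative. Fits used all genes and all groups of a protocol, and p-values were adjusted over all tested genes (Benjamini-Hochberg; threshold 0.05). Wells needed at least 500 genes, control wells were left out, and the remaining wells were summed per plate. Spike-ins (92) and transgenes (9) were left out. No sequence or coordinate is given since the files' build is not stated; exon lengths and overlaps come from annotation BDGP6.54. Named members are up to 5 per direction and comparison with the largest difference among those past the test and at a mean of at least 20, all mitochondrial members, and the highest nuclear member of each complex; others were named after their values were seen, among them ND-20, ND-MWFE, SdhD, UQCR-C1, COX8 and Cyt-c1. Scripts were checked on simulated data. Depth limits the low members: intervals were not computed.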

Additional observations from a re-analysis of the deposited data

Results flagged for a closer look

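Of 210 groups of 4 to 10 libraries examined for a library far from the others, 15 held one, and chance alone gives about 1 in 20. In bulk D7, replicate 2 of line SS02238 stood apart in ND-13A (130.35 FPKM, others 48.26 to 51.73), ND-B12 (24.73, others 0 to 3.91) and mt:ND3 (63.12, others 5.51 to 8.09). In bulk EPG, single libraries stood apart in ND-B14.5B (37.76 FPKM, others 0 to 2.09), ND-B15 (13.47, others 0 to 1.31) and mt:ND6 (166.75, others 50.68 to 68.94). In low-cell libraries, R4d library 2 had 341 CPM of ND-B14.5B (others 205 to 249), R4d library 1 had 919 CPM of mt:ND5 (others 1405 to 1653) and CB library 8 had 128 CPM of ND-MLRQ (others 197 to 212). PEN1 plate replicate 3 stood apart in the mitochondrial share without rRNA (3.23%, others 1.58 to 1.78%), mt:CoI (11023 CPM, others 6077 to 7351), mt:CoII (5809, others 1888 to 3157), mt:CoIII (4062, others 1454 to 1874) and mt:Cyt-b (3381, others 1255 to 1899), members that share a genome and so are not independent. PEN2 plate replicate 5 had 959.6 CPM of ATPsynF (others 641 to 706).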

How the results depend on the processing

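Leaving out PEG libraries for the sums was added after seeing the data. Counts of members past the test in the low-cell comparisons stayed within 1.5 times of the main count under every alternative run: 59 to 67 for R4d against CB (60), 60 to 68 for PEN2 against R4d (64) and 21 to 35 for PEN2 against CB (24). The plates gave 0 under all. The bulk counts were few and moved. No share of all tested genes is given beside any count of an alternative fit. Against WB, D7 (4) gave 2 with upper-quartile scaling, 8 unscaled, 7 unfiltered and 11 with only the groups compared; EPG (3) gave 11 unscaled, 6 unfiltered and 15 with only the groups compared; PEG (4) gave 10 with only the groups compared; PEN2 (3) gave 21 unscaled, 7 unfiltered, 7 with a pseudocount of 0.1 and 21 with only the groups compared. Against the other sorted types, D7 (2) gave 1 with upper-quartile scaling, unscaled and with scaling without mitochondrial and rRNA genes, and 0 with a pseudocount of 5 and without WB; EPG (1) gave 0 unscaled, unfiltered and without WB; PEN2 (2) gave 1 unfiltered, 4 with a pseudocount of 0.1 and 1 with a pseudocount of 5. Leaving out each library in turn gave 0 to 7 for D7, 0 to 13 for EPG, 0 to 13 for PEG and 0 to 12 for PEN2 against WB, and 0 to 7, 0 to 7, 1 to 11 and 1 to 11 against the other types; the cause was not tested. Titles number the libraries of a line 1 and 2, but deviations of same-numbered libraries of different lines correlated by only -0.036 to 0.035 over 21 pairs, so the numbers do not pair them; with the replicate block the counts against WB were 3, 3, 4 and 3 for D7, EPG, PEG and PEN2, and against the other types 1, 0, 1 and 1. For the bulk sums, the log2 ratio of shares to WB depends on the total. The nuclear ratio of D7 was 0.05 over all genes, 1.28 without rRNA, 1.03 without rRNA and mitochondrial genes and 0.60 as the median of members; that of EPG 0.02, 1.24, 0.96 and 0.56; that of PEG -0.74, -0.090, 0.028 and 0.24; that of PEN2 -0.74, 0.46, 0.11 and -0.57. The mitochondrial ratio was -2.07, -0.84, -1.09 and -0.50 in D7, -2.86, -1.59, -1.86 and -1.73 in EPG, -3.57, -2.38, -2.73 and -2.19 in PEN2, and in PEG -0.27, -3.14 without replicate 1 and 0.63 without replicate 2. In low-cell sums the median of members gave 1.37 for the nuclear ratio of R4d to CB, -1.37 for that of PEN2 to R4d and -0.53 for the mitochondrial ratio of PEN2 to R4d, beside sums of 1.20, -1.24 and -0.28. Of 498 checks of single members 431 kept direction and call, 64 lost and 3 gained the call, and none reversed.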
